A study of Mus musculus with 3 samples.

Results

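The transcription factor genes Elf5, Cdx2, Eomes, Tfap2c, Tead4, Gata3 and Ets2 act in the trophoblast, the lineage that forms the outer layer of the blastocyst and later the placenta. The 7 genes were chosen by name out of 22359 protein-coding genes. No measured value entered the rule, but earlier results of these data were known at the time. CpG methylation was examined from 5 kb upstream to 5 kb downstream of their transcription starts in mouse embryonic stem (ES) cells. ES cells derive from the inner cell mass and do not normally contribute to this lineage. The sets examined were 1 library of whole-genome bisulfite sequencing (WG-BisSeq) from REST knockout ES cells of the strain Black Agouti 129, and 2 replicates of CTCF ChIP-BisSeq from wild type ES cells of a mixed 129-C57Bl/6 background. In ChIP-BisSeq, the DNA pulled down by an antibody against CTCF undergoes bisulfite sequencing, so that its coverage marks where CTCF was recovered and its counts give the methylation of the recovered DNA. Each ChIP library was made from the pooled DNA of 5 ChIP experiments. All cells were grown on feeder cells or on gelatine. Genotype, strain and assay differ together between the knockout and the ChIP libraries and cannot be told apart, so a difference between them is one between libraries. REST is a repressor of neuronal genes, and the knockout library is used here as the only measurement of total DNA, with no wild type WG-BisSeq beside it.

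These factors fill different places in the trophoblast network. Tead4, a TEA domain factor, acts upstream of the homeobox gene Cdx2 in the early trophectoderm, and Gata3, a zinc finger factor, acts beside Cdx2. Eomes (T-box), Elf5 and Ets2 (both ETS domain) and Tfap2c (AP-2 family) maintain trophoblast stem cells. In mammals most CpGs are methylated, except in CpG islands, which lie at the starts of many genes and stay unmethylated whether or not the gene is expressed. Promoters poor in CpGs can be methylated, and methylation of the Elf5 promoter in ES cells is a known mark that separates the embryonic from the trophoblast lineage. Elf5 has further annotated starts inside the gene, and the sources used here do not state which start carries this mark.

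The coverage set the precision. The REST knockout library held 273375318 observations of CpGs, a mean of 12.8 per CpG of the genome, whereas ChIP replicate 1 held 13411280 (0.628 per CpG) and replicate 2 held 25262179 (1.18 per CpG). The deposited counts give, for each CpG, the observations and the methylated observations, and methylation is their share in percent, with an exact 95% Clopper-Pearson interval that covers counting error only. Neighbouring CpGs can lie on the same read, so their observations are not independent. Intervals over several CpGs can therefore be too narrow, and intervals that do not overlap are a description. The same holds for the exact tests below, whose p-values can be too small. The labels were checked on other genes. In the knockout library, 2 exons of Rest held 3 observations over 35 CpGs and 12 over 41 CpGs, against 29.7 per CpG in the first exon of Rest and 11 per CpG in the last. In ES cells the pluripotency genes Pou5f1, Nanog and Zfp42 are expressed, and the knockout library showed 4.04%, 16.9% and 10.7% methylation at their promoters, although those of Pou5f1 and Nanog are CpG poor.

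The 7 starts fall into distinct sequence classes. The observed over expected CpG ratio in 1001 bp was 0.193 at Elf5, below the limit of 0.4 for a CpG poor promoter. It lay between 0.633 (Eomes) and 0.909 (Tfap2c) at the other 6, which with a GC content of at least 50% makes them CpG rich. The 250 bases upstream of the Elf5 start (mm9, chr2:103251595-103251844, plus strand) and of the Ets2 start (chr16:95923432-95923681, plus strand) show the contrast, with CpGs in capitals. Neither stretch overlaps an annotated exon.
Elf5: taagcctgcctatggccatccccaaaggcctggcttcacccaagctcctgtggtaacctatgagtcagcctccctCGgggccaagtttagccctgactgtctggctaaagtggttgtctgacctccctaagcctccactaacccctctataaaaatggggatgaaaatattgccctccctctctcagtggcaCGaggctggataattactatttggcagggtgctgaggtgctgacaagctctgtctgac
Ets2: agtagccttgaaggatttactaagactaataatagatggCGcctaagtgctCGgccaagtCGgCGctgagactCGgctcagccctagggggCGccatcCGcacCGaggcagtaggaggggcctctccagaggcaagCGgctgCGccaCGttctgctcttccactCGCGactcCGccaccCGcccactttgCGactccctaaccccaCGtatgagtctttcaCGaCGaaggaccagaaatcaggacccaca
The Elf5 stretch held 2 CpGs, and all 11 observations of them in the knockout library were methylated. The Ets2 stretch held 19 CpGs, and 20 of 307 observations were methylated.

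Elf5 was the methylated member of the group. Within 500 bp of its start (mm9, chr2:103251845, plus strand, first base of ENSMUST00000164172.1), 150 of 187 observations at 15 CpGs were methylated in the knockout library, which is 80.2% (interval 73.8 to 85.7%). In wild type cells the ChIP libraries were thin here, where replicate 1 had 6 observations, each methylated, and replicate 2 had 17 methylated out of 22 (77.3%, interval 54.6 to 92.2%). Most observations were thus methylated in each of the 3 libraries, and the comparison that requires 10 observations in every library could not include this promoter. With replicate 1 left out or a minimum of 5 observations, the bin from the start entered it and was called neither higher nor lower. At least 50% methylation was found at 74.9% of the 6934 measured CpG poor promoters, so Elf5 shares its state with most of its class. Of these promoters, 83% were lower than Elf5, and the median of the class was 66.7%.

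The single CpGs of Elf5 were methylated on both sides of the start. Upstream, the knockout library had few observations, with 2 of 3 methylated at -410 bp, 2 of 4 at -374, 2 of 4 at -365, 2 of 3 at -330, 4 of 5 at -299, 6 of 6 at -175 and 5 of 5 at -58. Downstream, coverage was higher, with 9 of 10 methylated at +24 bp, 10 of 12 at +26, 16 of 20 at +72, 17 of 20 at +89, 18 of 23 at +107, 20 of 24 at +216, 24 of 32 at +277 and 13 of 16 at +422. Over the 8 CpGs with at least 10 observations, methylation ranged from 75 to 90%, and no CpG stood out as unmethylated.

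**Figure D1:**
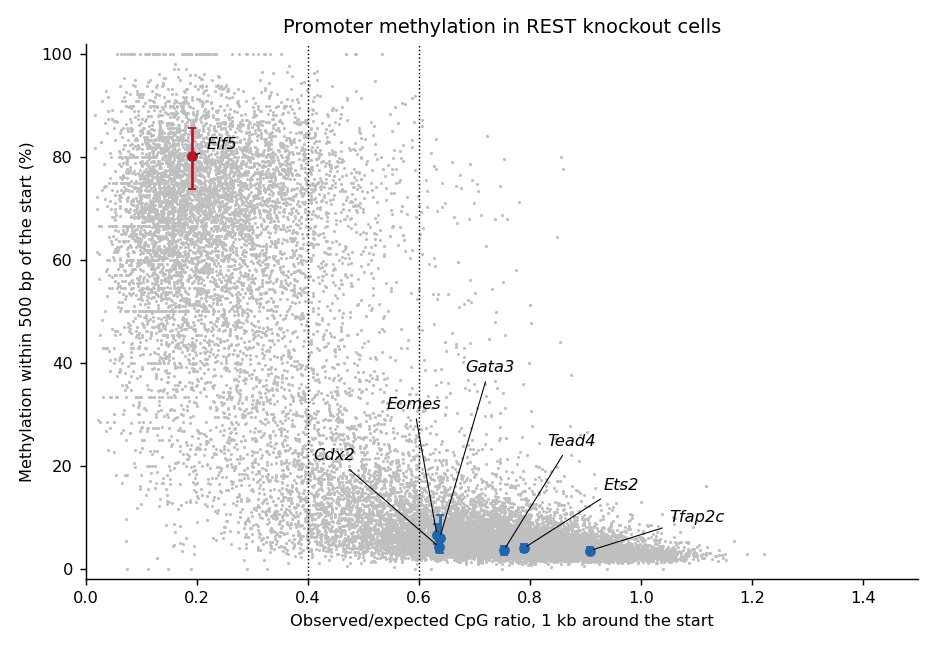
Methylation within 500 bp of the start (%) in the REST knockout library against the observed over expected CpG ratio, for protein-coding promoters with at least 10 observations (grey) and the 7 trophoblast regulators (Elf5 red, the others blue, bars are 95% Clopper-Pearson intervals). Dotted lines mark the class limits of 0.4 and 0.6. Elf5 lies at 80.2% among the CpG poor promoters, and the other 6 lie between 3.50 and 6.47%.

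The 6 CpG rich members had low methylation in the knockout library. From lowest to highest, the promoter of Tfap2c was at 3.50% (101 of 2887 observations, interval 2.86 to 4.23%), Tead4 at 3.51% (65 of 1854, 2.72 to 4.45%), Ets2 at 3.96% (92 of 2326, 3.20 to 4.83%), Cdx2 at 4.15% (56 of 1349, 3.15 to 5.36%), Gata3 at 5.98% (11 of 184, 3.02 to 10.4%) and Eomes at 6.47% (45 of 695, 4.76 to 8.57%). Neighbours in this order have overlapping intervals, while those of Tfap2c and Eomes do not overlap. The order depends on the window and the weighting. With the mean over CpGs with at least 5 observations Ets2 was at 7.54%, the highest of the 6, and Cdx2 at 6.67%. With 1000 bp to each side Tead4 was at 7.62% and Gata3 at 11.5%, and with 250 bp Tead4 was at 1.96%, Gata3 at 3.45% and Cdx2 at 6.30%. From the most upstream start Tfap2c was at 8.93% and Gata3 at 10.7%. No CpG rich member reached 50%, which was reached by 0.16% of the 9978 measured CpG rich promoters. The median of the class was 4.41%, with between 32.8% (Tfap2c, Tead4) and 75.6% (Eomes) of CpG rich promoters lower than the members. Eomes lay just above the upper quartile of the class, 6.41%, and the others lay within the quartiles. Unconverted cytosines also count as methylated, and the conversion rate is not given in the sources used here. The part of unconverted cytosines in these few percent was not tested.

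Summed over the window, the wild type ChIP libraries were low at the same promoters. For Tfap2c, replicate 1 showed 31 methylated among 1380 observations (2.25%) and replicate 2 showed 98 among 2120 (4.62%). Ets2 had 59 of 944 (6.25%) and 118 of 1462 (8.07%). Eomes had 0 of 180, with an interval that reaches 2.03%, and 11 of 335 (3.28%). Cdx2, the caudal-type homeobox factor, had 2 of 173 (1.16%) and 1 of 108 (0.926%). Tead4 had 13 of 118 (11%, interval 6.00 to 18.1%) and 8 of 141 (5.67%, 2.48 to 10.9%). The Tead4 replicates differed upstream of the start, with 13 of 27 and 0 of 10 methylated in the bin from -500 bp. Replicate 1 had 6 of 6 at -401 bp and 6 of 6 at -393 bp, which replicate 2 did not observe. Gata3 was seldom covered, with 2 of 27 (7.41%) and 2 of 43 (4.65%). Each replicate of each of these genes thus lay below 20%, in contrast to Elf5.

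Single CpGs of the CpG rich members were mostly unmethylated, with some methylated ones at the upstream edge and, at Cdx2, also near the start. Among CpGs with at least 5 observations in the knockout library, the median was 0% at Gata3 and at most 7.69%, at Eomes. At Ets2, the CpGs at -435, -420, -404 and -368 bp had 5 of 6, 5 of 7, 5 of 7 and 5 of 9 observations methylated, and the one at -199 bp 2 of 8, whereas the 65 CpGs with at least 10 observations were at most at 12.5%. At Tead4, the CpGs at -454, -401, -393 and -242 bp had 4 of 6, 4 of 7, 3 of 7 and 2 of 9 methylated, and the 67 with at least 10 observations were at most at 10.5%. At Cdx2, 6 CpGs with 5 to 8 observations reached 20%, at -463, -345, -341, +38, +41 and +52 bp, with a highest value of 40%. The Cdx2 start itself was thinly covered. Of the 1349 observations of this promoter, 66 lay upstream of the start. The knockout library had 2 of 4 methylated at -9 bp, 2 of 3 at the first base, 2 of 3 at +8, 0 of 3 at +24 and 2 of 3 at +26. At these CpGs replicate 2 had 0 of 3, 0 of 1, 0 of 4, 0 of 4 and 1 of 3. With at least 10 observations, 20% was reached only at Eomes (-460 bp, 3 of 11, and +377 bp, 3 of 15) and Gata3 (+490 bp, 3 of 14). Gata3 was thinly covered, with 7 of its 46 CpGs unobserved and a median coverage of 2, and Tfap2c had no CpG at 20%.

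**Figure D2:**
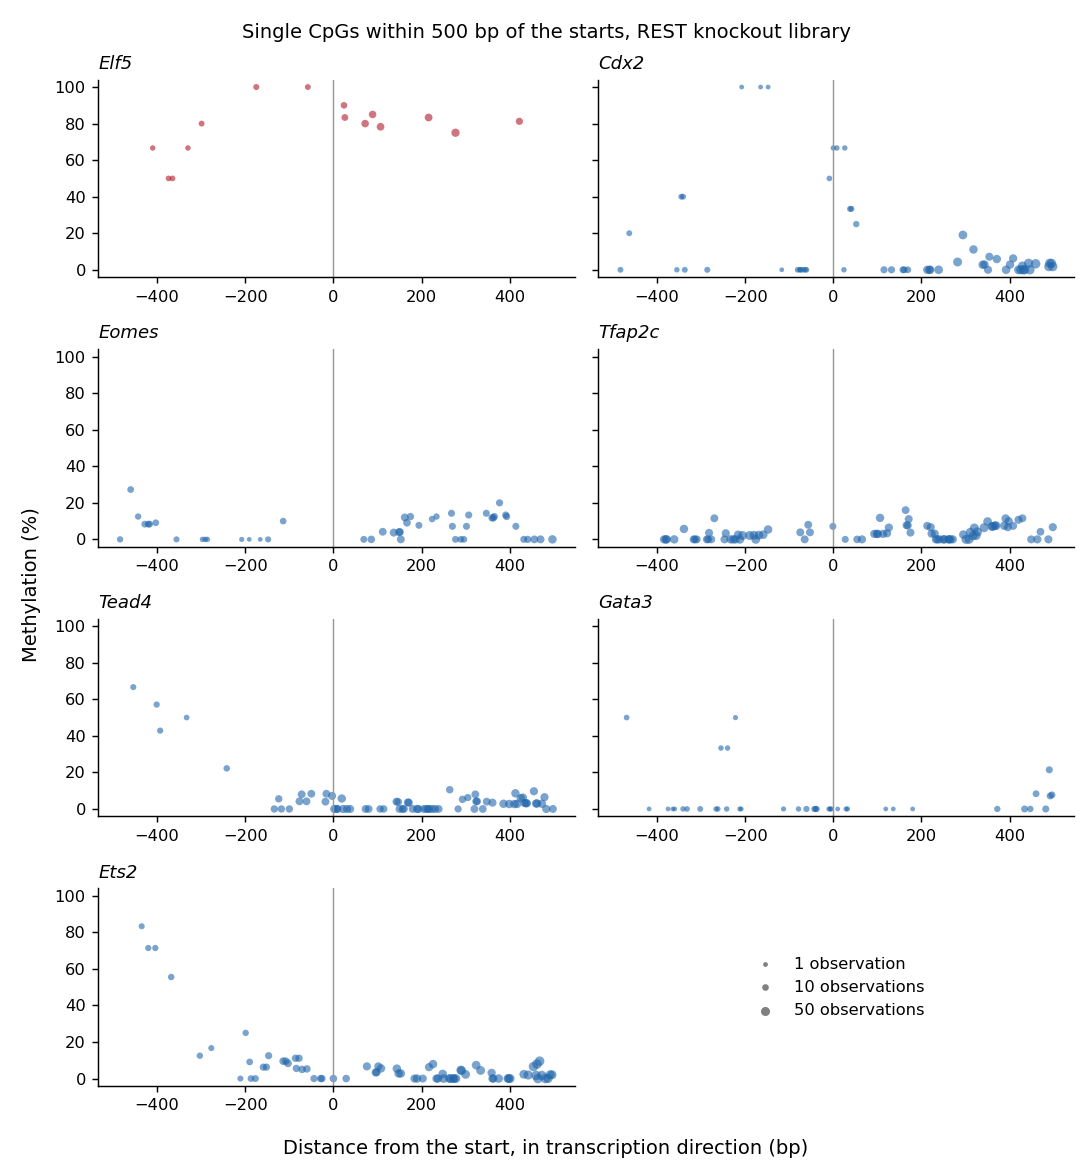
Methylation (%) of single CpGs within 500 bp of each start in the REST knockout library, against the distance in transcription direction, where the point area grows with the number of observations. Elf5 CpGs lie at 50% or more, most CpGs of the other genes lie near 0, and the highest values at Ets2 and Tead4 lie at -242 bp or further upstream. The Cdx2 points at 100% have 1 observation each.

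The promoters were then compared with their flanks, the rest of the 10 kb, by Fisher's exact test on summed counts with Benjamini-Hochberg adjustment over all tested genes. A promoter was called lower when the adjusted p was under 0.05 and the difference at least 20 percentage points. Tead4 was lower, at 3.51% against 30.3% in its flanks (Fisher's exact test, adjusted p = 6.47e-112). By the same exact test, the difference was -18.3 points for Ets2 (adjusted p = 1.31e-85), for Cdx2 -13.6 (2.35e-41), for Gata3 -11.8 (6.89e-06), for Tfap2c -11.1 (3.20e-65) and for Eomes -6.91 (7.01e-08), which are differences past the p limit but below 20 points. Of all CpG rich promoters, 71.0% were called lower, against 1 of 6 here. The flanks are weighted by observations and include low bins next to the promoter window. At Eomes the bin from +500 bp, at 3.61%, held 3238 of the 5148 flank observations. At Cdx2 that bin, at 3.34%, held 1585 of 3600. How far this sets the count of 1 was not tested. With no minimal difference all 6 were lower, and with a promoter of 1000 bp to each side 4 were, namely Cdx2, Eomes, Tead4 and Ets2. Elf5 ran the other way, with 80.2% against 71.4% in its flanks, a difference of +8.81 points (exact test, adjusted p = 0.0232) that is not called, and 16.4% of CpG poor promoters were called lower.

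The profile over 10 kb shows where low methylation ends. Going out from the start in bins of 500 bp until a bin reached 20%, the unmethylated span was 3000 bp at Gata3, 2500 bp at Eomes and Tfap2c, 2000 bp at Cdx2 and Ets2, 1500 bp at Tead4 and 0 bp at Elf5. None reached 4000 bp, a length reached by 2.35% of CpG rich promoters. At a limit of 30% the span reached 4000 bp at Cdx2 and 6500 bp at Tfap2c.

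At Ets2 the borders were sharp. The bin from -1000 bp had 66.7% (70 of 105), the next 12% (42 of 350), and the 500 bp after the start 2.53% (50 of 1976). On the far side methylation was 10.3% (8 of 78) from +1000 bp and 52.2% (48 of 92) from +2000 bp, with no observation between. Tead4 showed the same steep upstream border, with 84.4% (76 of 90) from -1000 bp and 9.68% (27 of 279) from -500 bp.

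Eomes had a graded upstream border. From -2500 bp to the start, successive bins were at 72.0, 30.6, 21.4, 16.4 and 8.26%, with 93 to 365 observations each. Cdx2 was methylated upstream, at 45.8% or more in each bin beyond -500 bp with at least 10 observations, and low downstream, where the 3 bins to +1500 bp held 3.59, 3.34 and 5.32%. A single bin at 20.5% (38 of 185) ended the Cdx2 span, and the next pair was at 13% and 7.04%.

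Tfap2c and Gata3 stayed low on their upstream side. At Tfap2c the 10 upstream bins ranged from 1.56% (5 of 320) to 22.6% (47 of 208), whereas from +1500 bp every bin was at 40% or more. At Gata3 the upstream bins were between 5.16 and 20.5%, except for 52.5% (94 of 179) from -2000 bp. Gata3 has a further protein-coding start 11434 bp upstream, which is of the intermediate class and was at 10.7% (100 of 934).

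Elf5 was methylated through most of the region. Of its 18 bins with at least 10 observations, 16 were at 50% or more. The exceptions were 35.0% (7 of 20) from -2500 bp and 10.0% (2 of 20) from +3000 bp. Over all 90 CpGs of the region 73.4% of 806 observations were methylated in the knockout library, and in the ChIP libraries 96.0% of 50 and 87.8% of 98.

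**Figure D3:**
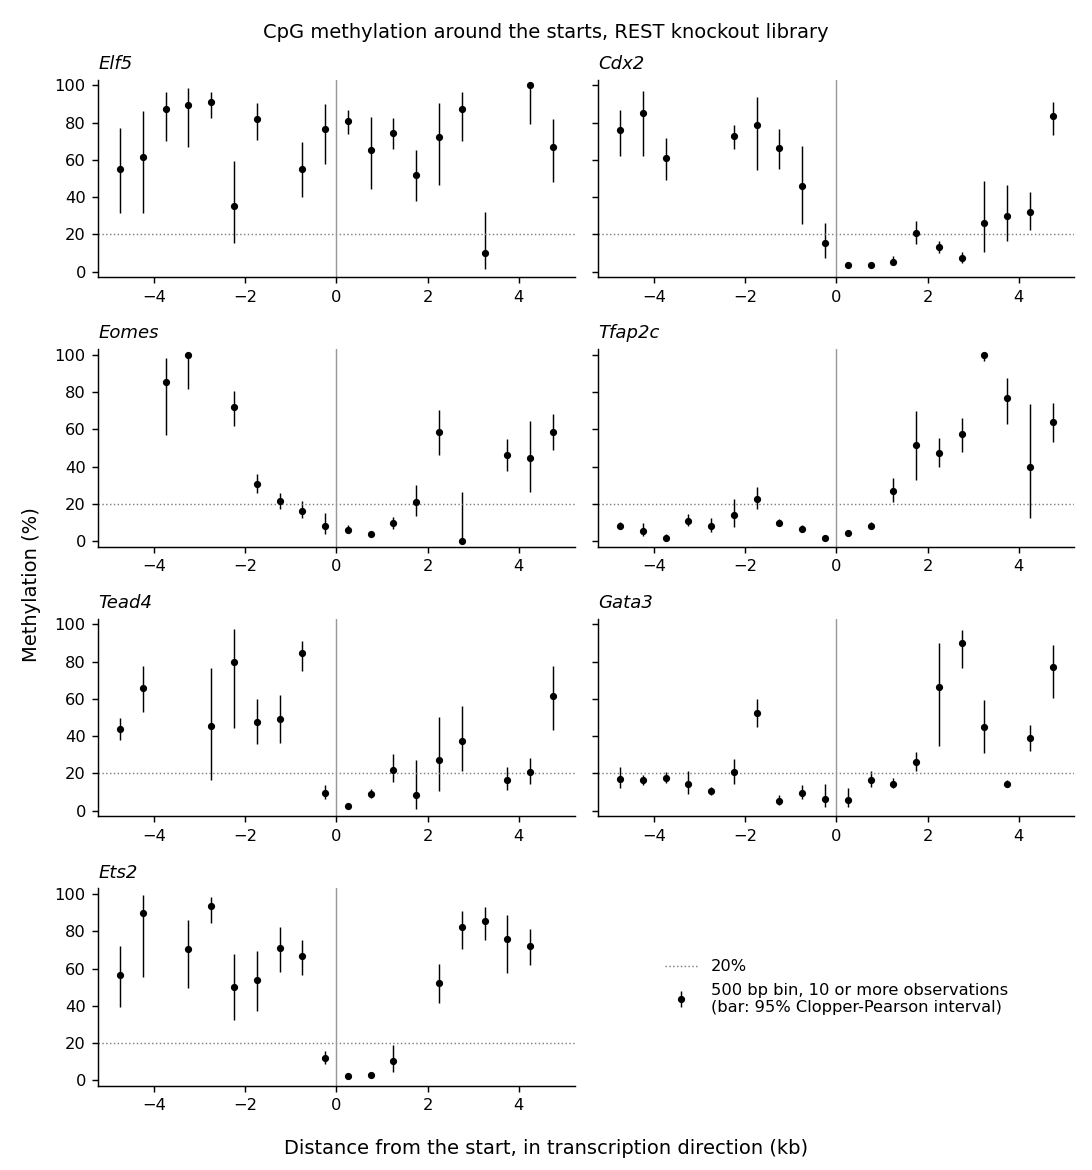
Methylation (%) in 500 bp bins over 5 kb to each side of the starts in the REST knockout library, for bins with at least 10 observations, with 95% Clopper-Pearson intervals and a dotted line at 20%. The CpG rich genes have a low stretch around the start, from 1500 bp at Tead4 to 3000 bp at Gata3, and Elf5 has none.

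CTCF, the zinc finger factor that shapes chromatin loops, was recovered near 5 of the 7 genes by a rule of coverage. The share of all genes with such a bin is not given here, so the count of genes has no background beside it. There was no input library. A bin was called CTCF enriched when both replicates had at least 4 times the mean observations per CpG of their library. This held for 9 of the 140 bins, or 6.43%, and for 2.62% of all bins around protein-coding starts. At Tfap2c the bin just upstream of the start had 55.3 times the library mean in replicate 1 and 46.6 times in replicate 2, and the bins from the start (6.90 and 4.69 times) and from -3500 bp (11.6 and 8.64 times) passed as well. At Ets2 the bin just upstream had 50.3 and 45.2 times. At Gata3 the bin from -1500 bp, which lies in an intron of a Gata3 transcript that starts further upstream, had 46.6 and 33.4 times. At Tead4 the bin from -2500 bp, outside annotated genes, had 51.7 and 27.9 times, and at Eomes 3 successive exonic bins from the start had 7.43 and 7.07, 24.8 and 11.4, and 8.33 and 7.77 times. The replicates gave the same peak bin in each of these 5 genes.

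Summed over each bin, DNA recovered with CTCF at these bins was low in methylation. Just upstream of Tfap2c, 19 of 1146 and 91 of 1820 observations were methylated in the replicates, and 1.91% in the knockout library. Upstream of Ets2 it was 58 of 790 and 112 of 1337, and 12% in the knockout library. At the Gata3 bin it was 14 of 615 and 32 of 829, and 5.16% in the knockout library, and at the highest Eomes bin 35 of 1138 and 47 of 981, and 3.61%. The Ets2 bin was not low throughout. Its CpGs at -435, -420, -404 and -368 bp had 3 of 3, 7 of 7, 10 of 10 and 9 of 12 observations methylated in replicate 1. In replicate 2 they had 17 of 20, 22 of 28, 19 of 21 and 2 of 5. Cdx2 had no enriched bin, with up to 5.18 times the mean in replicate 1 and 2.97 times in replicate 2. Elf5 had none either within 5 kb, with 6.14 and 3.26 times in its highest bin, from +1500 bp. Without replicate 2 the count of enriched bins rose from 9 to 18, with Elf5 and Cdx2 then included, and without replicate 1 it was 9. Divided by the knockout coverage of the bin, 13 bins passed. The Eomes bin from +500 bp and the Tfap2c bin from the start were then lost, while Elf5 from +1500 bp and Cdx2 from -500 and +3000 bp were among those gained.

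**Figure D4:**
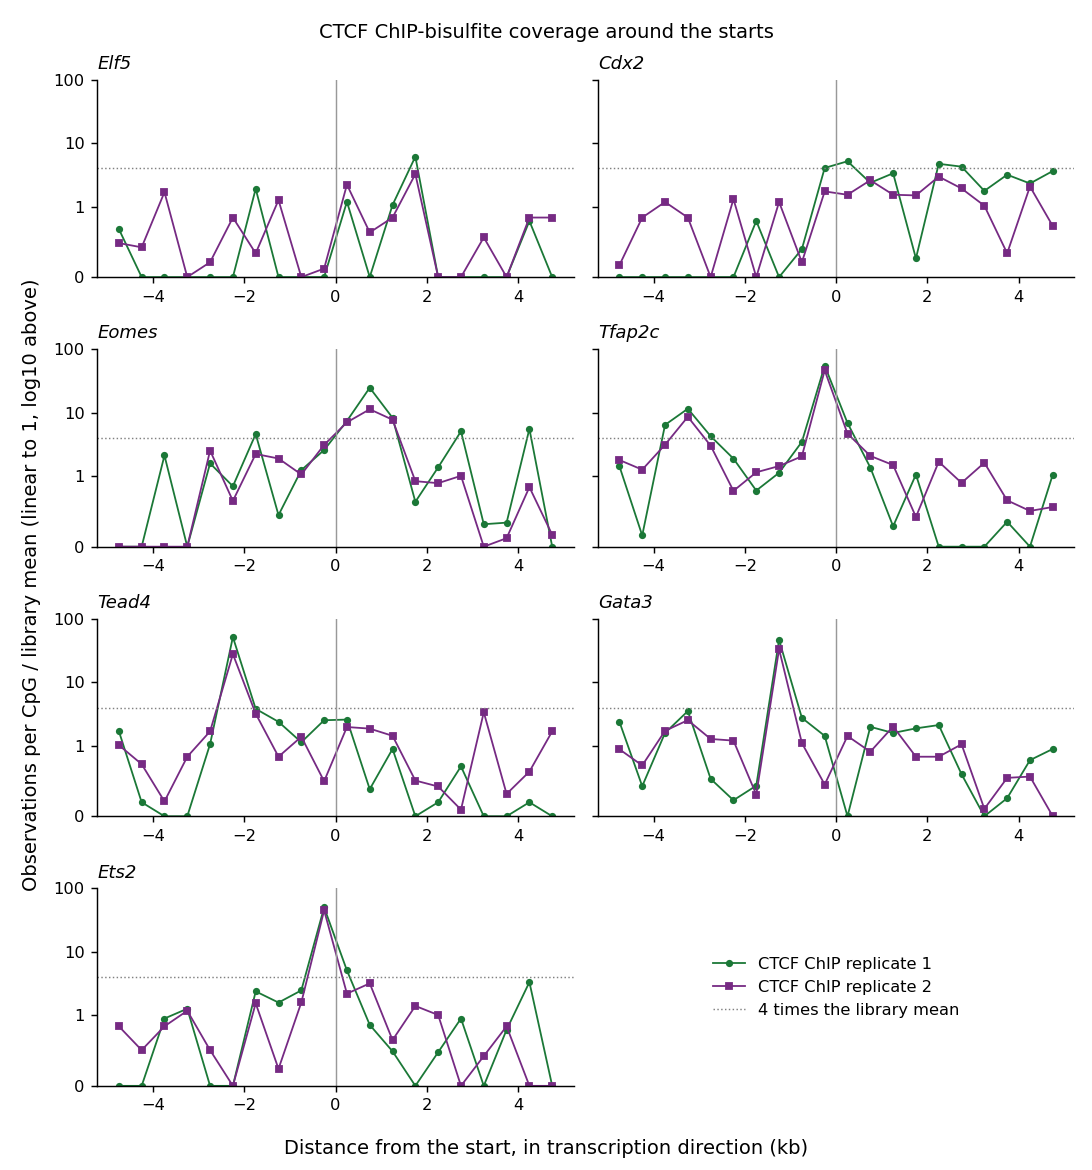
Observations per CpG over the library mean in the CTCF ChIP-BisSeq replicates (axis linear up to 1 and log10 above), in 500 bp bins over 5 kb to each side of the starts, with a dotted line at 4 times. Both replicates peak in the same bin at Tfap2c, Ets2, Tead4, Gata3 and Eomes, at 11.4 times or more, and Elf5 and Cdx2 stay at 6.14 times or less.

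Matches to the CTCF consensus, at 13 positions within a 20 bp frame and on both strands, were searched in these regions. An exact match occurs in 32.2% of all regions of this length around protein-coding starts and a match with up to 1 mismatch in 68.5%. Of the 7 genes, 2 had the former and 6 the latter. The matches shown are those inside windows of high ChIP coverage near Tead4, Tfap2c, Eomes and Elf5, with the consensus positions in capitals.
Tead4, exact match, chr6:128252845-128252864, plus strand: atggCGCCCTCTTCTGGtgg
Tfap2c, 1 mismatch, chr2:172376109-172376128, minus strand: ctgtCGCCCCCTAGCGGaag
Eomes, 1 mismatch, chr9:118388351-118388370, plus strand: atgcTGCCCCCCGGTGGatt
Elf5, 1 mismatch, chr2:103253450-103253469, plus strand: attgCGCCACCTTTTGGtgg
Elf5, exact match, chr2:103264986-103265005, plus strand: cattTGCCCCCTACTGGcag
The peak bins of Ets2 and Gata3 held no match with up to 1 mismatch, and sequences with more mismatches were not searched. Exact matches at -3906 bp of Ets2 and -3332 bp of Tead4 lay outside the enriched bins. Each had 1 CpG in the 200 bp centred on it, with no observation in either replicate and 1 and 0 in the knockout library. Whether CTCF was recovered at these matches could thus hardly be read.

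CpGs inside these matches could be read directly. In the Tfap2c match the 2 CpGs were methylated in 0 of 62 and 2 of 71 observations of replicate 1, in 4 of 86 and 6 of 89 of replicate 2, and in 1 of 43 and 1 of 39 of the knockout library. The CpG in the Eomes match had 1 of 50, 0 of 19 and 3 of 33. The CpG in the Tead4 match had 2 of 65 and 2 of 56 in the replicates, and no observation in the knockout library. The CpG in the first Elf5 match, at chr2:103253454, was methylated in all 4 observations of replicate 1 and all 8 of replicate 2, and in 7 of 20 in the knockout library (35.0%, interval 15.4 to 59.2%). In the 200 bp centred on that Elf5 match the ChIP coverage was 11.1 and 6.20 times the library mean, and 21 of 21 and 16 of 22 observations were methylated, against 13 of 32 in the knockout library. Thus the low values of the Tfap2c, Eomes and Tead4 matches were not seen at this Elf5 match, which has few observations.

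Methylation was compared between the ChIP libraries and the knockout library in the 48 member bins with at least 10 observations in all 3, by Fisher's exact test in each replicate. Both replicates had to pass an adjusted p of 0.05 with at least 20 points in the same direction. No bin was higher in ChIP-BisSeq, against 1.59% of all 49919 tested bins, and 1 was lower, against 2.51%. With replicate 1 or replicate 2 left out, 3 and 5 bins were called higher and 2 bins lower in either case. The bin called lower is the Tead4 bin from -2500 bp, with 2 of 65 and 12 of 66 observations methylated in the ChIP replicates and 8 of 10 in the knockout library (exact test, adjusted p = 3.85e-06 and 0.00210). This bin has 2 CpGs, and the libraries did not observe the same ones. The CpG in the consensus match was seen only in the ChIP libraries, while the other, at chr6:128253218, had 8 of 10 methylated in the knockout library, no observation in replicate 1 and 10 of 10 in replicate 2. With only CpGs observed in both libraries the call was lost.

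Elf5 has 2 further annotated protein-coding starts in its body, 12374 and 13140 bp downstream of the first. The first of them (chr2:103264219, ratio 0.404, intermediate class) was at 44.6% in the knockout library (58 of 130, interval 35.9 to 53.6%), against 80.2% at the upstream start, and the intervals do not overlap. In the ChIP replicates 24 of 24 and 25 of 38 observations were methylated there. The last one (chr2:103264985, CpG poor) was at 46.3% in the knockout library (31 of 67, interval 34 to 58.9%), and at 29.3% (54 of 184) and 24.5% (59 of 241) in the ChIP replicates.

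The last Elf5 start coincides with the highest CTCF coverage near the gene. The bin from +13000 bp had 35.0 and 23.9 times the library mean, and the exact consensus match printed above begins at the base after this start. In the 200 bp centred on the match the coverage was 61.7 and 43.7 times the mean. The match has no CpG, and the CpG just before it, at chr2:103264984, had 0 of 34 and 2 of 55 observations methylated in the replicates and 0 of 6 in the knockout library. The CpG before that, at 103264968, had 7 of 34, 11 of 40 and 0 of 4. After the match the CpG at 103265028 had 12 of 44, 9 of 57 and 2 of 7, the one at 103265036 had 20 of 43, 22 of 55 and 3 of 7, and the one at 103265133 had 6 of 20, 0 of 13 and 1 of 6. Among these 5 CpGs the ChIP replicates were both highest at 103265036, and the knockout library had at most 7 observations at each. In the following bin, from +13500 bp, all 22 observations of the knockout library were methylated.

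**Figure D5:**
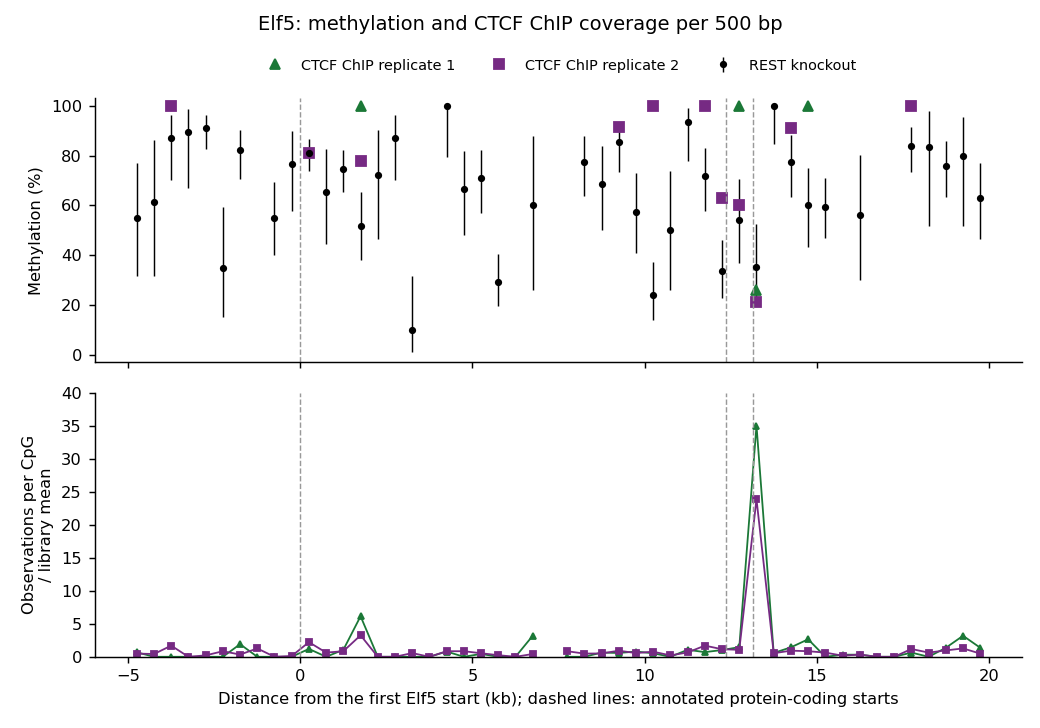
Elf5 from 5 kb upstream to 20 kb downstream of its first start (dashed lines mark the 3 annotated protein-coding starts), with methylation per 500 bp (%, upper panel, bins with at least 10 observations, bars are 95% Clopper-Pearson intervals for the REST knockout library) and CTCF ChIP-BisSeq observations per CpG over the library mean (lower panel). Coverage peaks at 35.0 and 23.9 times at the last start, where methylation is between 21.2 and 35.1%.

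Further starts of the other members were also read. At Ets2 and Tead4, CpG poor starts 4264 bp and 25236 bp downstream were methylated, at 72.7% (88 of 121) and 57.4% (31 of 54). A CpG rich start of Eomes 517 bp downstream was at 4.0%, and a start of Tfap2c 1189 bp upstream at 8.93%.

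The genes with the most similar profile were taken as those with the smallest mean absolute difference over 18 bins. For Elf5 these were Tlr12 (13.8 percentage points), Slc6a9 (14.4) and Serpinf2 (14.7) among 1415 candidates. For Cdx2 they were Cdc42ep4 (9.25 points), Gm20508 (9.80) and Sssca1 (10.7) among 1492 candidates.

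A second list of 33 other trophoblast genes was read the same way, and 31 were measured. Of its 9 measured CpG poor promoters 7 were at 50% or more. These were Tpbpa (55.6%), a marker of the spongiotrophoblast, Ctsj (60.7%) and Ctsq (80.0%), placental cathepsins, Gcm1 (66.2%), a factor of labyrinth formation, Furin (70.5%), a proprotein convertase, Prl3d1 (78.3%), a placental lactogen, and Psg17 (79.2%), a pregnancy-specific glycoprotein. The value of Ctsq rests on 10 observations. By the limits of the flank test, Furin, Gcm1 and Prl3d1 were higher than their flanks. These were at 11.9% (1001 of 8382 observations), 45.8% (238 of 520) and 32.3% (10 of 31), and the promoters held 258, 77 and 46 observations. Values at other starts of these genes are not given here. Of all 6924 tested CpG poor promoters, 835 were higher in this way. Hand1, a factor of giant cell differentiation, was at 36.6% and Plet1 at 18.3%. None of the 4 intermediate and 18 CpG rich promoters of the list reached 50%, and the CpG rich ones ranged from 1.67% (Klf5) to 17.2% (Peg10). The share of 7 in 9 lies near the 74.9% of all CpG poor promoters, and the list's CpG poor median of 66.2% near their 66.7%.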

How the data were processed

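CTCF ChIP-BisSeq (2 replicates, wild type ES cells) and WG-BisSeq of REST knockout ES cells (1 library) were used. The authors deposited counts per CpG, the observations and the methylated observations, as whole numbers without normalization, listing only CpGs with at least 1 observation. Reads were aligned to mm9. The submitters' processing notes name Bowtie 0.10.0.1, with no role given, and duplicate removal and merging of strands are not given in the sources used here. PCR copies may therefore count more than once, and bisulfite sequencing reads hydroxymethylated cytosines as methylated. Replicate numbers do not state separate cultures.

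Counts were placed on the 21342492 CpGs of mm9 (NCBIM37), and 189 CpGs on mitochondrial DNA in replicate 1 were left out. Starts are from GENCODE vM1, those of the transcript with the longest coding sequence, with ties (as at Elf5) going to the most upstream start. Tfap2c, Tfap2a and Plet1 were found through RefSeq synonyms. Shares were summed over windows with at least 10 observations, with SciPy 1.17.1, NumPy 2.4.6, pandas 2.3.3 and Python 3.11.15, and figures drawn with matplotlib 3.10.9. Fisher's exact tests with Benjamini-Hochberg adjustment over all genes or bins compare libraries or regions within a library, with observations as units, and were tested on simulated data. CTCF enriched bins also needed 20 pooled observations. Sequences are from NCBIM37.

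Genes were named as follows. All members, the genes of the second list at 50% or more, the 3 most similar profiles to Elf5 and Cdx2, single CpGs of the CpG poor member, those at 20% or more of the others, and ES cell markers and Rest as label checks were named. Hand1, Plet1, Klf5 and Peg10 and the CTCF sites downstream of Elf5 were chosen after their values were seen. The members and lists were chosen with earlier results of these data known. Alternatives changed the window, start, minimal counts, thresholds and replicates.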

Additional observations from a re-analysis of the deposited data

How the results depend on the processing

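In each alternative tried, Elf5 was the single member at 50% or more methylation, and no difference between a promoter and its flanks changed direction. The most upstream start of Elf5 is the one already used, and further starts inside the genes were not among these alternatives. Inside Elf5 they were at 44.6% and 46.3%, below the limit of 50%, while those inside Ets2 and Tead4 were at 72.7% and 57.4%. The call of Elf5 thus holds for its first start. In the Tead4 bin from -2500 bp, the CpG observed in both libraries was methylated in all 10 observations of replicate 2 and in 8 of 10 from the knockout library, so the lower value was not seen there. With 80% as the limit 1254 CpG poor promoters, 0 CpG rich promoters and 1 gene of the second list were called in place of 5192, 16 and 7, with 20% as the limit 126 CpG rich promoters, and with a single class limit of 0.5 175. The count of members lower than their flanks, 1, was 4 with a promoter of 1000 bp to each side, 2 with the most upstream start and 6 with no minimal difference, where 1 member, Elf5, was higher in place of 0. With the most upstream start Gata3 is not CpG rich, with 10.7% methylation and a span of 1000 bp. Leaving out 1 ChIP replicate gave 3 to 5 member bins and 5904 to 6641 of all bins higher in ChIP-BisSeq (0 and 793 with both), 2 to 2 member bins and 2784 to 3685 of all bins lower (1 and 1255), and 9 to 18 member bins enriched for CTCF (9). All bins higher were 243 with at least 20 observations and 1258 with at least 5. Member bins lower were 0 with at least 20 observations, 0 with CpGs observed in both libraries and 3 with no minimal difference, where 3087 of all bins were lower. Enriched bins were 21 of the members and 20522 of all at 2-fold, and 7065 of all at 8-fold (9 and 11158 at 4-fold). Members with a span of at least 4000 bp were 2 at a limit of 30% (0 at 20%), and of all genes 43 at 10% and 823 at 30% (295). No paired analysis was possible because the groups share fewer than 2 replicate numbers. Replicate 1 has 6 observations at the Elf5 promoter, below the minimum of 10, and the Gata3 promoter rests on a median of 2 observations per CpG.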
